A study of Mus musculus with 10 samples.

Results

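Peptide genes of feeding, arousal and daily timing whose main sources lie outside the preoptic region, or in scattered interneurons, were measured in laser-captured preoptic tissue. The 10 genes were listed by name and function: Npy, Agrp, Hcrt, Pmch, Vip, Cck, Grp, Ghrh, Kiss1 and Prok2. Every probe set whose annotation named exactly 1 gene, and that gene a listed one, was taken. This gave 10 probe sets for 8 of the 10 genes, out of 34945 probe sets that named 1 gene and 45101 in all. No probe set named Agrp or Kiss1 alone in the annotation used, so they have no value here. Prok2 had 3 probe sets and the other 7 genes had 1 each.

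Each of the 10 arrays held RNA of 1 mouse, amplified in 2 rounds. All mice were of the DBA1/lacJ background and had received 120 µg/kg of lipopolysaccharide (LPS, a bacterial cell wall component that causes fever) by intraperitoneal injection 5 h before the brain was removed. The groups were 5 mice labelled WT and 5 labelled mPGES-1 KO, which lack microsomal prostaglandin E synthase-1, the inducible enzyme for prostaglandin E2, encoded by Ptges. The comparison asks which transcripts of the fever-controlling preoptic region depend on this enzyme during inflammation. The sources used here state neither the age of the animals nor the deleted part of Ptges. Mice without LPS were not analysed here, so no value below is a response to LPS.

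These peptides work as signals released from dense-core granules of neurons onto G protein-coupled receptors, often at a distance. Neuropeptide Y (Npy) and agouti-related peptide (Agrp) of the arcuate nucleus promote feeding, and growth hormone-releasing hormone (Ghrh) and kisspeptin (Kiss1) neurons also lie there. The orexins (Hcrt) and melanin-concentrating hormone (Pmch) are made by lateral hypothalamic neurons that govern arousal and appetite. Vasoactive intestinal peptide (Vip), gastrin-releasing peptide (Grp) and prokineticin 2 (Prok2) mark neurons of the suprachiasmatic nucleus, the circadian clock directly below the preoptic region, and cholecystokinin (Cck), Vip and Npy also mark classes of cortical interneurons.

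The upstream sequences of Vip and Cck are shown because both were highest on the same array, as described below, a choice made after their values were seen. They are the 250 bases before the RefSeq start site (GRCm38.p6), written 5′ to 3′ in the direction of transcription. Vip lies on the plus strand (chr10:5638968-5639217) and Cck on the minus strand (chr9:121495695-121495944). Capitals mark matches to TGACG, the short form of the cyclic AMP response element, or to its reverse complement CGTCA, and to the E-box CACGTG, which clock factors are known to bind.
Vip: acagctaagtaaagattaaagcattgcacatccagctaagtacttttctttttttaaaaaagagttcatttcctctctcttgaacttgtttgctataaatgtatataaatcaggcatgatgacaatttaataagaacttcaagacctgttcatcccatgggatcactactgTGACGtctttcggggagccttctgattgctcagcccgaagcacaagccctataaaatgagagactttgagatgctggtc
Cck: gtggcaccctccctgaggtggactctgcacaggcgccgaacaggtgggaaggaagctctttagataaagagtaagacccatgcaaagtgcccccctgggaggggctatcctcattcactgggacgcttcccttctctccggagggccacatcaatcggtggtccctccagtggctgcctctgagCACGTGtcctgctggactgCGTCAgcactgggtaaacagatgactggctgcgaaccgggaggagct
Both upstream sequences held a match to the short element. It began 79 bases before the start of Vip and 47 before that of Cck, where an E-box also began at 66. The search covered both strands. A filter by chromosome, applied to the listed genes but not to the background, left 9 upstream sequences for 8 of the listed genes. Agrp and Grp had no sequence among them, and the filter need not be the reason for each. The short element was found in 5 of the 9 sequences, from 4 of the 8 genes (Vip, Cck, Ghrh and Kiss1). The E-box was found in 2 sequences, those of Cck and Prok2, and began 135 bases before the start of Prok2. The full palindrome TGACGTCA, which contains the short element, was found in 0. Over all 32851 upstream sequences of the same length the shares were 17.8%, 6.02% and 1.55%. A match describes letters only, and the arrays do not measure binding.

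The arrays were alike in overall scale but not in every respect. Each had a mean intensity of 200.002 over all probe sets after the lowest and highest 2% were left out. The RNA spike-ins were seen on 7 arrays, the exceptions being KO replicate 3 and WT replicates 2 and 5. On KO replicate 3, of 12658 probe sets present on every array, 55 were over 2-fold brighter than on each other array, against 0 to 13 for the other 9 arrays. Counted instead over all probe sets above the 99th percentile of the olfactory and vomeronasal receptor probe sets described below, this array had 94 and the others 2 to 71, so how far it stood apart depended on the count, and both counts were chosen after the values were seen. The Ptges probe set 1439747_at gave 49.96 ± 24.5 (SD, n = 5) in mice labelled KO and 4.54 ± 3.09 in mice labelled WT, higher and not lower where the gene was deleted (log2 difference 1.60, limma adjusted p = 0.091). The other Ptges probe sets gave 40.2 ± 21.5 against 13.4 ± 13.6 and 37.3 ± 15.9 against 30.7 ± 19.7. Where the deletion lies is not known here, so the labels could not be checked, and WT and KO below mean the libraries so labelled. Of the 10 markers of the preoptic region, Gal, Nts, Adcyap1 and Esr1 were present on all 10 arrays. Moxd1 and Ptger3 were present on 8, Trh on 7, Hmx3 on 6, Hmx2 on 5 and Nkx2-1 on 2.

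Presence was judged array by array, because the deposited table gives intensities without detection calls. A probe set was counted as present where it lay above the 95th percentile of 80 probe sets for olfactory and vomeronasal receptor genes on the same array, which serve as genes without a known role in this tissue. This cut, called the background cut below, ran from 21.1 (KO replicate 5) to 76.4 (WT replicate 2). The 10 probe sets were present in 57 of 100 combinations of probe set and array, 27 of 50 in WT and 30 of 50 in KO. Over all probe sets with 1 gene the share present was 53.7%, 52.3% in WT and 55.1% in KO, so the members' 57%, 54% and 60% stood near it. Vip, Grp and Npy were present on all 10 arrays. Cck was present on 8, the best Prok2 probe set on 6, Pmch and Ghrh on 5, Hcrt on 3 and the other Prok2 probe sets on 0.

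No member was called between the genotypes. The fit by limma over 34945 probe sets called 0% of them at a Benjamini-Hochberg adjusted p below 0.05, so 0 of 10 member probe sets stand beside 0 of all. The lowest adjusted p was 0.091 over all probe sets and 0.342 among the members. At an unadjusted p below 0.05 there were 1 member probe set, Hcrt, and 13% of all probe sets (4543). The groups did not overlap in 0 member probe sets and in 3.37% of all. Log2 differences (KO minus WT, on the scale log2(intensity + 16)) were positive for 3 member probe sets and negative for 7. With 1 probe set per gene, the 8 genes had a median of -0.04 and all 18193 genes a median of -0.09. In bulk tissue, fewer cells of a type and less RNA per cell cannot be told apart.

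**Figure D1:**
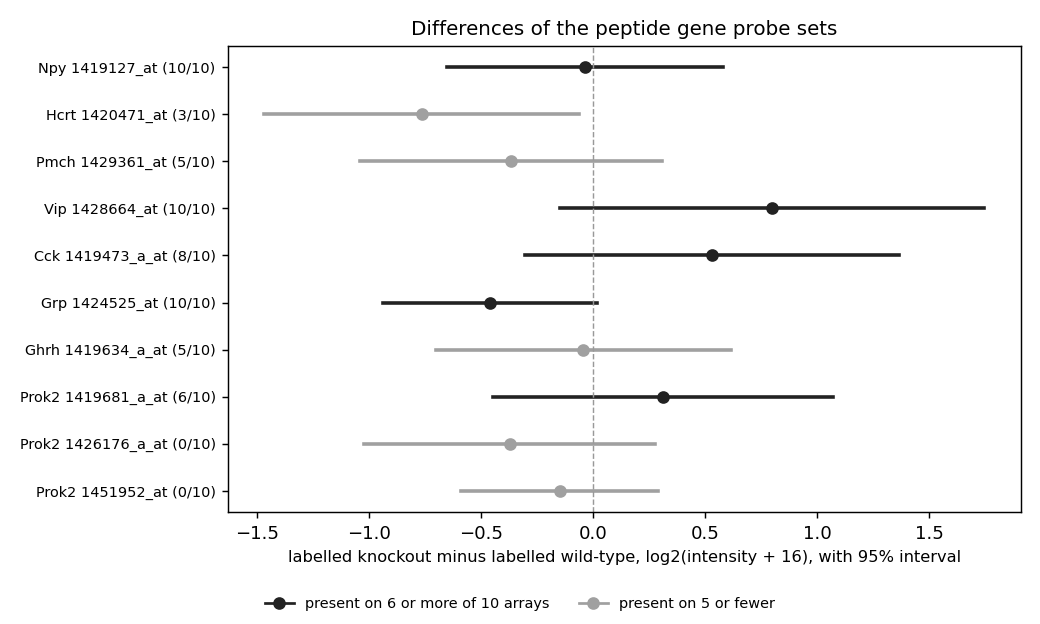
Log2 differences (labelled knockout minus labelled wild-type, horizontal axis) of the 10 probe sets with 95% intervals from limma, 5 arrays per group, and the number of arrays with presence in brackets. Dark marks are probe sets present on 6 or more arrays. All intervals include 0 except that of Hcrt, which was present on 3 arrays.

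Vip, which encodes a peptide that synchronizes clock neurons, was the most variable of the members present on every array. Its intensities were 450.1, 1053, 251, 176 and 156 in WT replicates 1 to 5. In KO replicates 1 to 5 they were 421, 624, 1585, 443 and 325. KO replicate 3 was highest of all and WT replicate 2 next, and the groups overlapped, since WT replicates 1 and 2 lay within the KO range. Every value was between 4.50 and 56.0 times the background cut of its array. The highest value was 6.73 times the lowest in WT and 4.88 times in KO, with SDs of 1.08 and 0.87 on the log2 scale against medians of 0.43 and 0.32 over all probe sets. The log2 difference was 0.80 (SE 0.45, 95% interval -0.15 to 1.75, limma adjusted p = 0.459), so both no difference and a 3.35-fold higher mean in KO lie within or at its bounds. It was 0.44 without KO replicate 3 and 1.21 without WT replicate 2 (limma adjusted p of 0.717 and 0.232).

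Grp, which encodes a bombesin-like peptide of the suprachiasmatic core, was the steadier of the bright members. Intensities in WT replicates 1 to 5 were 483, 386, 445, 281 and 589. Those in KO replicates 1 to 5 were 260.01, 202, 431, 279 and 408. The lowest 3 values of KO (replicates 1, 2 and 4) lay below all WT values, and the highest 2 lay within the WT range. Means were 437 ± 114 (SD, n = 5) in WT and 316 ± 98.9 in KO, and the highest value was 2.10 times the lowest in WT and 2.13 times in KO. The log2 difference was -0.46 (SE 0.23, 95% interval -0.94 to 0.02, limma adjusted p = 0.401). Grp thus did not share the sign of Vip, although both mark the suprachiasmatic core, and whether the 2 differences differ was not tested. With the arrays centred on their medians the Grp difference was -0.18, while quantile normalization gave -0.52.

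Prok2, an output signal of the suprachiasmatic clock, was at the edge of detection. Its best probe set (1419681_a_at) ranged from 5.17 to 71.6 in WT and from 20.4 to 63.97 in KO. It was present on 2 WT and 4 KO arrays, and lowest in its group on WT replicate 4 and KO replicate 4. The log2 difference was 0.31 (SE 0.36, 95% interval -0.45 to 1.07). It was 0.0012 without WT replicate 4, and 0.51 without either WT replicate 3 or KO replicate 4. The other 2 probe sets were below the background cut on all 10 arrays, at 44.8 or less (1426176_a_at) and 15.5 or less (1451952_at), and their differences were negative, at -0.37 and -0.15, so the Prok2 probe sets differed in sign, with all 3 intervals including 0.

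Npy, the feeding peptide of arcuate neurons and also a marker of scattered forebrain interneurons, showed no separation of the groups. WT replicates 1 to 5 gave 91.6, 82.1, 33.9, 59.2 and 49.5. KO replicates 1 to 5 gave 86.5, 37.9, 89.2, 48.4 and 44.9. The ranges nearly coincided, and group means were 63.3 ± 23.6 (SD, n = 5) in WT and 61.4 ± 24.5 in KO. The log2 difference of -0.04 (SE 0.29) had a 95% interval of -0.65 to 0.58, which bounds a change to between 0.64-fold and 1.49-fold on that scale. Its sign turned under quantile normalization (0.14) and median centring (0.24), and without any 1 of WT replicates 1 and 2 and KO replicates 2, 4 and 5 (0.015 to 0.086). Npy was present on every array but close to the cut, between 1.08 and 3.15 times its value.

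Cck, which encodes the satiety and gut peptide that cortical and other forebrain neurons also make, was set apart by 1 array. WT replicates 1 to 5 gave 42.5, 51.0, 67.0, 70.7 and 49.6. KO replicates 1 to 5 gave 44.0, 73.8, 359, 59.2 and 60.7. The value of 359 on KO replicate 3 was 4.86 times the next highest of all arrays, and the other 9 arrays lay between 42.5 and 73.8 with both groups mixed. The log2 difference was 0.53 (SE 0.40, 95% interval -0.30 to 1.37, limma adjusted p = 0.588). Without KO replicate 3 it was 0.07 (limma adjusted p = 0.947), and over only those 7 arrays that showed the spike-ins it was -0.0051.

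Other genes stood out on KO replicate 3 together with Cck. The 94 probe sets of the wider count above came from 77 genes, of which only some are named. Besides those below they included Prkcb (1333 on KO replicate 3, at most 257 elsewhere) and Adcy1 (1701 and at most 350, probe set 1456487_at). All are named after their values were seen, though Ttr and Neurod6 were also on the marker lists. Ttr, which encodes the thyroxine carrier transthyretin of the choroid plexus, read 6161 there and at most 446 on the other 9 arrays (probe set 1459737_s_at). Of the other choroid plexus and ependymal markers, Folr1 (27.5), Kl (22.7) and Foxj1 (12.5) were below the background cut of 28.3 on that array. The summed level of the 4 markers ran from 226 to 516 in WT and from 131 to 6224 in KO. Neurod6, a transcription factor of cortical and hippocampal excitatory neurons, read 81.9 there and at most 28.8 elsewhere, and Neurod2 read 319 and at most 119. Mef2c (6322 against at most 1962, probe set 1424852_at) and Itpka (737 against at most 186), both abundant in forebrain excitatory neurons, stood apart too. The summed cortical marker list (4 measured genes) was 630.5 on KO replicate 3 and at most 508 elsewhere. Within it Cux2 read 494 there and at most 435 elsewhere, whereas Tbr1 read 35.5 there and up to 48.6 elsewhere. Slc17a7, the vesicular glutamate transporter of cortical excitatory neurons, was below the cut on all 10 arrays. The summed level of 8 general neuron markers was also highest on KO replicate 3, at 27003 against at most 22436.5 elsewhere. Within it Syt1 read 8870 there and at most 4576 elsewhere, and Snap25 read 4199 and at most 3621. Map2, Rbfox3, Slc17a6, Slc32a1, Gad1 and Gad2 were not highest on that array. The part of any of these in the Cck and Vip values was not tested.

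**Figure D2:**
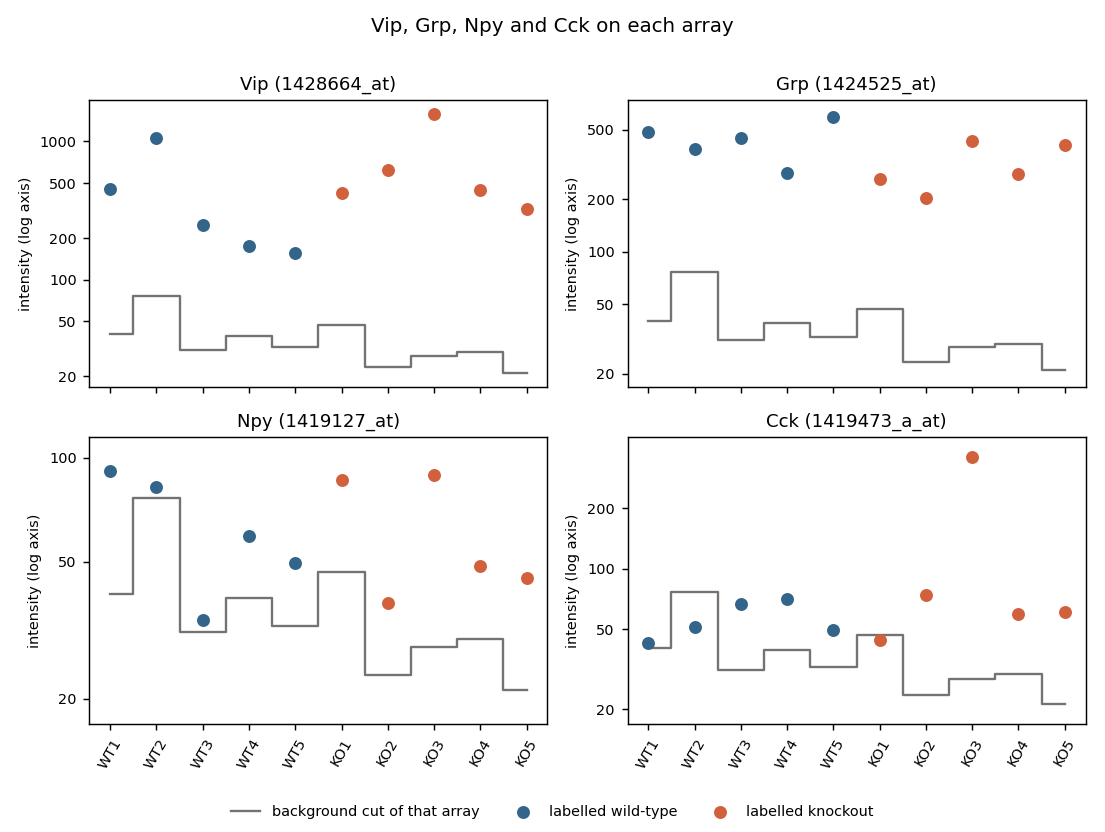
Intensity (vertical axis, logarithmic, 1 probe set per panel) of Vip, Grp, Npy and Cck on the 5 arrays labelled wild-type (WT1 to WT5) and the 5 labelled knockout (KO1 to KO5), with the background cut of each array as a grey line. Vip and Grp lie well above the line on every array, Npy just above it, and Cck is near it except at 359 on KO3.

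Hcrt, the orexin precursor gene, was the member with the smallest p, but it was mostly within background. WT replicates 1 to 5 gave 27.0, 53.9, 41.0, 14.2 and 62.7. KO replicates 1 to 5 gave 24.2, 20.3, 7.88, 2.31 and 29.2. The 3 highest values were all WT, whereas the rest overlapped, and presence was reached only on WT replicates 3 and 5 and KO replicate 5. The log2 difference was -0.76 (SE 0.33, 95% interval -1.47 to -0.06, limma adjusted p = 0.342). Array-wide values of dim probe sets moved the same way: the median intensity of an array ran from 32.0 to 44.8 in WT and from 24.7 to 29.9 in KO, and the background cut from 31.3 to 76.4 and from 21.1 to 46.7. Their part in the Hcrt value was not tested. The Hcrt difference was -0.53 with quantile normalization, -0.48 with median centring and -0.34 over the 7 arrays that showed the spike-ins.

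Pmch, the precursor gene of melanin-concentrating hormone, was as close to the cut. It ranged from 25.0 to 78.4 in WT and from 12.9 to 57.8 in KO, and was present on 2 WT and 3 KO arrays. Its log2 difference was -0.37 (SE 0.32, 95% interval -1.04 to 0.31). Ghrh, the arcuate gene that drives growth hormone release, ranged from 5.67 to 51.0 in WT and from 19.8 to 36.6 in KO, with presence on 2 WT and 3 KO arrays and a log2 difference of -0.04 (SE 0.31, 95% interval -0.70 to 0.61). That difference was -0.32 without WT replicate 4, and its sign turned without WT replicate 3, WT replicate 5 or KO replicate 4 (0.024 to 0.085). For Hcrt, Pmch and Ghrh a difference in the tissue could not be resolved at these intensities.

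**Figure D3:**
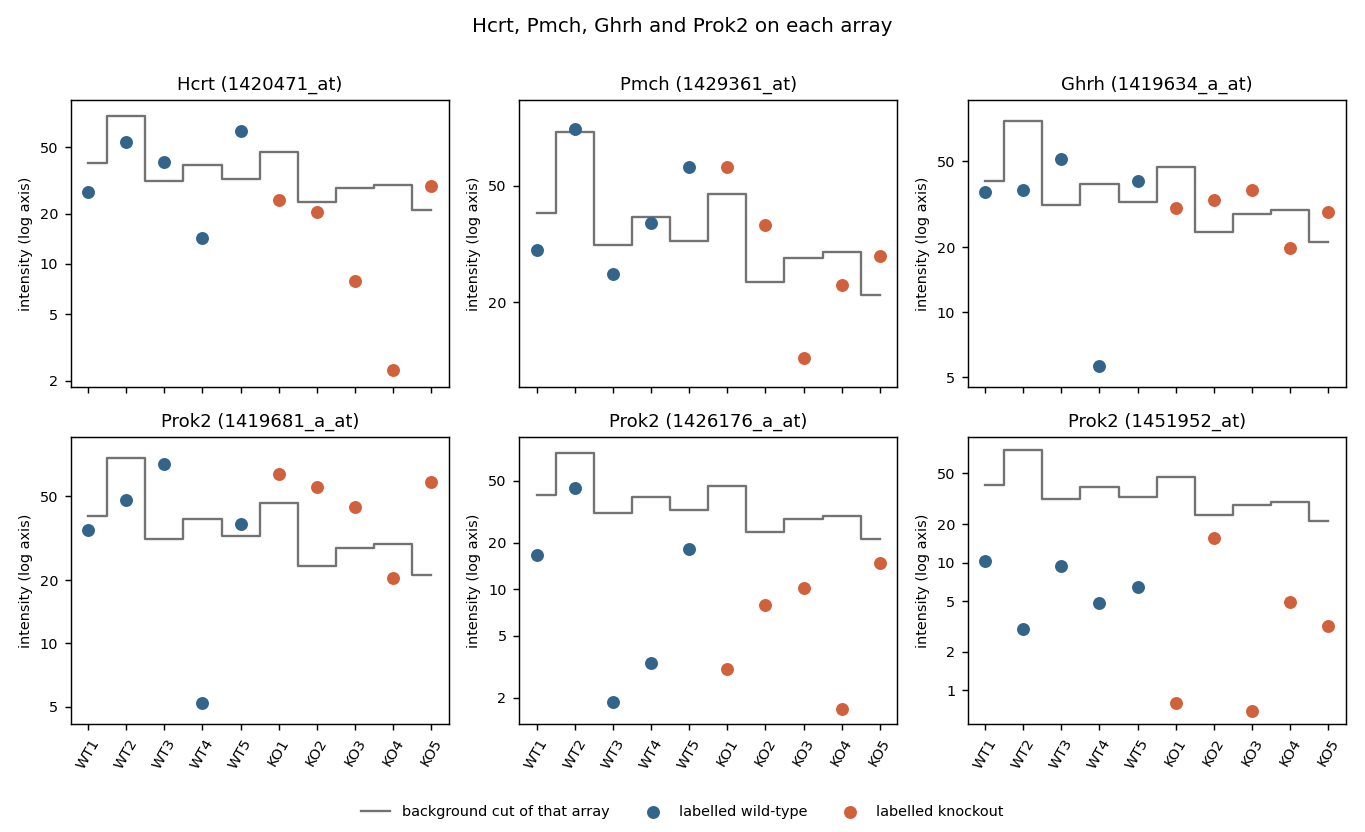
Intensity (vertical axis, logarithmic) of the probe sets of Hcrt, Pmch, Ghrh and Prok2 on each array, with the background cut of that array as a grey line, for arrays labelled wild-type and knockout. Most points lie around or below the line, and the Prok2 probe sets 1426176_a_at and 1451952_at are below it on all 10 arrays.

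The receptors for these peptides, with related receptors such as Brs3 and Nmbr, were described from a list of 23 gene names, of which 21 had a probe set. Of these, 6 were present on all 10 arrays, against 8676 of all 18193 genes, and 13 on 5 or fewer. Those on all arrays were Adcyap1r1 (the PACAP receptor, which also binds the Vip peptide), Mchr1 (melanin-concentrating hormone), Hcrtr1 (orexin A), Cckbr (cholecystokinin), Npy5r (neuropeptide Y) and Kiss1r (kisspeptin). Prokr2, the prokineticin 2 receptor, was present on 9 arrays and Npy1r on 7. The Vip receptor genes Vipr1 and Vipr2 were present on 2 and 0 arrays, the Grp receptor gene Grpr on 0, the second orexin receptor gene Hcrtr2 on 0 and the growth hormone-releasing hormone receptor gene Ghrhr on 0. Presence of a peptide transcript and of its receptor transcripts therefore did not go together throughout: Vip and Grp were present on all 10 arrays with these receptor genes on 2 or fewer, while Pmch was present on 5 with Mchr1 on 10, and Hcrt on 3 with Hcrtr1 on 10 and Hcrtr2 on 0.

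By genotype, 0 receptor genes were called, with 9 of 21 positive, 12 negative and a median log2 difference of -0.07. The smallest p values belonged to Brs3, a bombesin-family receptor gene, at -0.68 (limma adjusted p = 0.378, present on 1 array), and to Nmbr, the neuromedin B receptor gene, at 0.46 (limma adjusted p = 0.417, present on 0). Of those present on all arrays, Npy5r differed most, at 0.46 with a 95% interval of -0.10 to 1.02. Its range was 44.9 to 123 in WT and 64.9 to 134 in KO. Adcyap1r1 was the most tightly bounded, at -0.07 with an interval of -0.36 to 0.22, and Mchr1 and Hcrtr1 were at 0.01 and -0.01. Prokr2 read 277 on WT replicate 1 and at most 69.98 on the other 9 arrays.

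**Figure D4:**
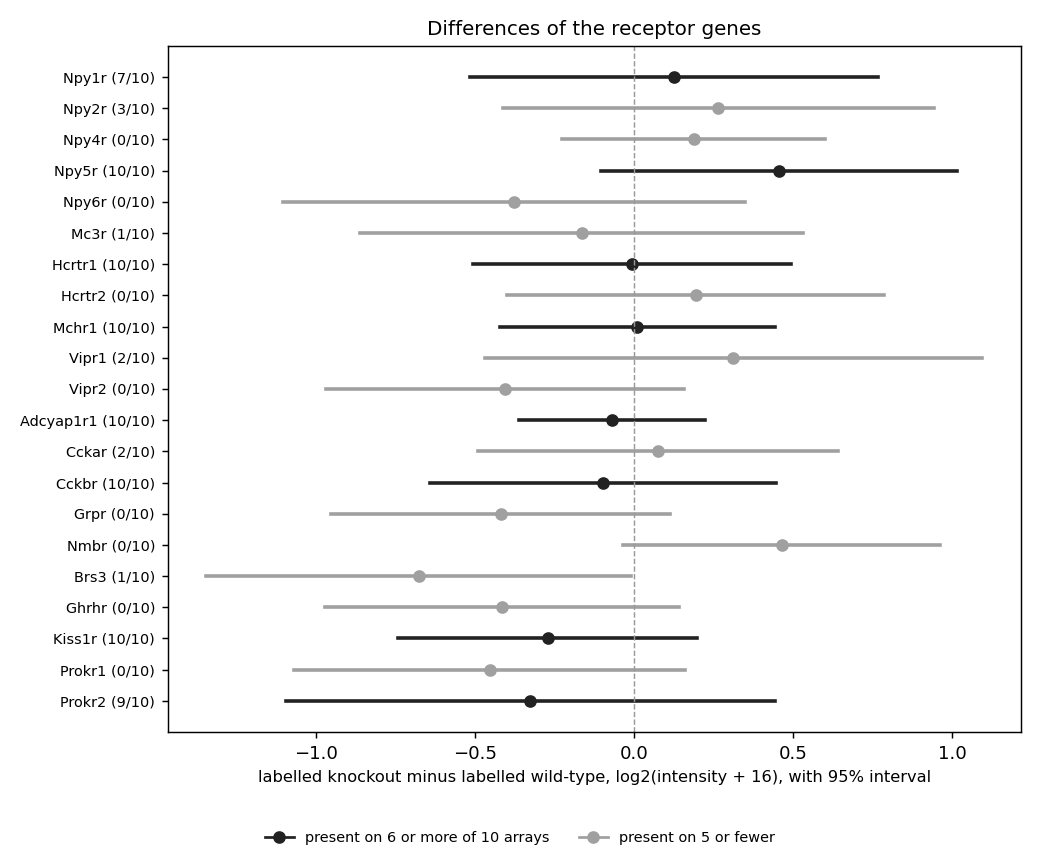
Log2 differences (labelled knockout minus labelled wild-type, horizontal axis) of the 21 measured receptor genes, 1 probe set each, with 95% intervals and the number of arrays with presence in brackets. All intervals include 0 except that of Brs3, present on 1 array.

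The machinery that cuts, amidates and stores these peptides was strongly detected. All 9 measured genes of the processing and granule list were present on all 10 arrays, and 0 were called, with 3 positive and 6 negative differences and a median of -0.12. Chgb, a granule protein gene, was at -0.27 and Cpe, the carboxypeptidase that trims peptide ends, at 0.26, and these had the smallest p values of the list (limma adjusted p of 0.499 and 0.577).

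Other genes of the nuclei that make these peptides gave a mixed picture. For the suprachiasmatic nucleus, Rgs16 was present on all 10 arrays, Six6 on 8, Avp on 7, Lhx1 on 6 and Syt10 on 4, with 1 positive and 4 negative differences (median -0.11, with Syt10 at -0.39 and Avp at -0.30). For the arcuate nucleus, Cartpt and Isl1 were present on all 10, Pomc on 9 and Ghsr on 1, with a median of 0.01, Cartpt at 0.31 and Ghsr at -0.31. For the lateral hypothalamus, Lhx9 and Nptx2 were present on all 10 arrays, whereas Npvf was present on 2 and Pdyn on 0 (median 0.06, with Lhx9 at 0.14 and Npvf at 0.08). Of the ventromedial markers, Gda was on all arrays at 0.44, Fezf1 on 7 at -0.0050 and Nr5a1 on 0 at -0.68. Gda read 2849 on KO replicate 3 and at most 2082 elsewhere. None of these lists had a called gene. Among interneuron markers 6 of 6 were present on 8 or more arrays, with 1 positive and 5 negative (median -0.27), the interneuron factor gene Lhx6 at -0.49 and the nitric oxide synthase gene Nos1 at -0.47 (limma adjusted p = 0.237). Of 5 measured genes of the striatum, which lies beside the preoptic region, 0 were called, 4 differences were positive and 1 was negative (median 0.44). Pde10a, present on all 10 arrays, was at 1.60 (limma adjusted p = 0.108), and Drd1, present on 8, at 1.24 (limma adjusted p = 0.258). Rgs9, also present on all 10, was at -0.25, and Ppp1r1b and Drd2, at 0.44 and 0.26, were present on 2 arrays and 1. Summed striatal levels ran from 421 to 610.3 in WT and from 537 to 1467 in KO, with 1467 on KO replicate 3 and 1448 on another KO array. Of 8 general neuron markers 0 were called, with 6 positive and 2 negative differences and a median of 0.18. The synaptic gene Snap25 was at 0.60 and the GABA synthesis gene Gad1 at 0.97 (both limma adjusted p = 0.175), whereas Gad2, the other GABA synthesis gene, was at 0.0080 and the negative pair, Map2 and Rbfox3, at -0.08 and -0.17. The part of either in the member values was not tested.

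For the 5 members whose best probe set was present on 6 or more arrays (Npy, Vip, Cck, Grp and Prok2), the genes most like each were taken from the probe sets present on all 10 arrays, by Pearson r over the 10 arrays with the group means removed. With 12657 or 12658 probe sets searched and 10 arrays, high values of r arise readily, so they are descriptions without a p. For Cck they were Synj1 (r = 0.97), Mgll (0.96) and Ttr (0.95, probe set 1454608_x_at), which without KO replicate 3 were 0.86, 0.57 and 0.57. For Vip they were Camsap2 (0.95), Pik3c3 (0.94) and Cstf2t (0.94), and these stayed at 0.91 or above without that array. Grp was nearest to Sox11 (0.95), Tafa1 (0.91) and Jkamp (0.90), Npy to Psma5 (0.97), Slk (0.97) and Dgke (0.95), and Prok2 to Thap1 (0.95), Trim2 (0.93) and Hnrnpf (0.92).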

How the data were processed

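RNA of 10 laser-captured preoptic samples was measured on 1 array each. The submitters' processing notes name GCOS without a version, and the authors deposited 1 linear intensity for each probe set and array, already scaled to a common trimmed mean. Arrays of one trimmed mean can still differ in how their values are distributed. Detection calls were not used here. Names came from the platform annotation, which can be old, and 34741 of 34945 probe sets with 1 gene matched RefSeq (GRCm38.p6) by Entrez ID, with 0 symbols changed. The annotation listed 932 further probe sets with several genes, which were not used. The 64 control probe sets were left out.

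Values were tested as log2(intensity + 16), so changes of dim genes are understated, with limma (lmFit, eBayes with an intensity trend), KO minus WT, genotype as the only term, no filter on dim values and Benjamini-Hochberg adjustment over all 34945 probe sets, and the procedure was tested on simulated data. Where 1 value per gene was needed, the probe set with the highest mean was used, with names ending in _x_at only if there was no other. The text names all members, Ptges, the 2 genes of smallest p in lists it describes by genotype, the genes most like each member present on 6 or more arrays, and others as presence examples or after their values were seen. The neuron, septum, preoptic, cortex and choroid lists serve as marker checks, and 0 of their genes were called. The members, lists and alternatives were chosen with earlier results of these data known. Replicates are separate mice per the labels, and precision is limited by how many arrays there are. No 2 arrays held equal values at more than 0.00443% of probe sets. Same-numbered WT and KO arrays did not deviate together (r between -0.17 and 0.08), so the numbers were not treated as pairs. Upstream sequences came from RefSeq (GRCm38.p6). R 4.3.3, limma 3.58.1, the data.table package (1.17.8), Python 3.11.15, pandas 2.3.3 and matplotlib 3.10.9 were used.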

Additional observations from a re-analysis of the deposited data

Results flagged for a closer look

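Of 20 groups of 5 arrays, 1 for each member probe set and genotype, 2 held an array far from the others by Dixon's test on the log2 scale, where chance flags about 1 in 20. Cck read 359 on KO replicate 3, with the next array of that group at 73.8. Ghrh read 5.67 on WT replicate 4, with the next at 36.0.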

How the results depend on the processing

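With each alternative, 0 member probe sets were called. Over all probe sets, median centring called 607 (597 higher, 10 lower), an adjusted p below 0.1 called 30, 1 probe set per gene with the dimmest 40% left out called 8, and averaging the probe sets of each gene called 1, as did the replicate block. Leaving out 1 array gave 0 to 1 (1 without KO replicate 1 or KO replicate 4). Centring moved the median difference of all probe sets from -0.11 to 0.17, and quantile normalization to 0.0008. Each replicate number holds 1 WT and 1 KO array, so the block leaves each difference unchanged and only its SE and p can move. With it the Vip difference of 0.80 had a limma adjusted p of 0.403, and no member call changed.

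Of 220 member values under alternatives, 200 kept their sign and 20 turned. The 200 include values that could not turn, because the alternative leaves the log2 difference itself unchanged. Such alternatives were the looser adjusted p limit, the fit without an intensity trend, the replicate block and the omission of dim probe sets. Averaging the probe sets of each gene also changes nothing for genes with 1 probe set. The 200 is therefore no measure of how stable the signs were. The cause of the turns was not tested. Npy turned to 0.14 (quantile), 0.24 (centring), 0.027 (spike-in block) and, leaving out single arrays, up to 0.086 (range -0.19 to 0.086). Ghrh turned to 0.064 (pseudocount 1), 0.20 (quantile), 0.24 (centring), 0.021 (spike-in block), 0.050 (arrays showing the spike-ins) and up to 0.085 without 1 array (range -0.32 to 0.085). Over the arrays showing the spike-ins Cck turned to -0.0051 and Pmch to 0.14. Prok2 turned to -0.070 with the mean of its probe sets, and its probe set 1451952_at to 0.13 with centring. Presence fell from 57 to 35 combinations with the 99th percentile (Npy on 5 arrays, Hcrt and Pmch on 0) and to 21 with an intensity of 100, where Vip and Grp stayed on all 10. The other cuts, the 90th percentile and an intensity of 50, moved the count by under 1.5 times.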
